A study of Mus musculus with 2 samples.

Results

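Peaks of open chromatin beside microRNA genes were described in left cerebral cortex tissue of aged mouse. Open chromatin had been measured by DNase-seq, in which DNase I cuts DNA that nucleosomes leave exposed and the cuts are sequenced. The labels give the strain B6CASTF1/J, a cross that carries a C57BL/6J and a CAST genome, the female sex and an adult age of 18 to 20 months. There was 1 group with 2 libraries, called library 1 and library 2 after their replicate numbers. The labels call them biological replicates 1 and 2, and give them separate tissue samples and 1 shared donor identifier. They do not say whether there was more than 1 animal, so the spread between the libraries may be technical. No condition was compared and the libraries form no pairs, so no test was made and every value below is a description. Even with 2 paired samples the smallest two-sided p of an exact permutation test would be 0.5. A peak was taken where it overlapped a GENCODE M21 gene of type miRNA extended by 1 kb on each side and had its midpoint over 500 bases from every start of a protein-coding gene. This gave 368 of the 132054 peaks of library 1 and 403 of the 139799 peaks of library 2. The distance rule leaves out peaks beside protein-coding starts, and without it 650 and 718 peaks lay in the extended genes. The sources used here do not give read numbers, and the depth is therefore unknown. In whole tissue, an opening in few cells and a small opening in many cells cannot be told apart.

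The tissue label was checked on promoters of marker genes. All 5 markers of cortical neurons, all 3 of astrocytes and 2 of 3 of oligodendrocytes carried a promoter peak, 500 bases or less from any start of the gene, in each library. Promoter peaks in both were found for 0 of 2 microglial, 0 of 3 liver and 0 of 3 muscle markers. Of these, the microglial Cx3cr1 alone had a promoter peak in a single library, with a signal of 0.333 in library 2.

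A microRNA is a short RNA that pairs through its seed, bases 2 to 8, with messenger RNAs and lowers their output. It is cut from a hairpin within a longer transcript, which is often a host gene whose promoter lies far from the hairpin, and some hairpins have a promoter of their own nearby. Brain is known for a small set of abundant microRNAs, among them miR-124 and miR-9, which promote and maintain neuronal identity, and miR-132 and miR-212, which neuronal activity induces through the factor CREB. CREB binds the cAMP response element, called CRE, whose full palindrome reads TGACGTCA.

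The sequence source used here had no entry under the symbol Mir124a-3. For the other loci of neurons and glia that carried the strongest peaks and that the text returns to, mature sequences are shown. They are from RefSeq (GRCm38.p6), 5′ to 3′, with the seed in capitals.
mmu-miR-132-3p: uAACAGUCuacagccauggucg
mmu-miR-212-3p: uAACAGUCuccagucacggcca
mmu-miR-9-5p: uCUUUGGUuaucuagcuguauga
mmu-miR-9-3p: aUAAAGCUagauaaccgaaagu
mmu-miR-129-5p: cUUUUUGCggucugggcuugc
mmu-miR-129-2-3p: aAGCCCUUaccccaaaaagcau
mmu-miR-128-3p: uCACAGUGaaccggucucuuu
mmu-miR-181a-5p: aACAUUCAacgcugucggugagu
mmu-miR-181b-5p: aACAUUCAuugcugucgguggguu
mmu-miR-29c-3p: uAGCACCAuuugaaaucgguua
mmu-miR-219a-5p: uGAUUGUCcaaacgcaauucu
The products of Mir132 and Mir212 share the seed AACAGUC, and those of Mir181a-1 and Mir181b-1 share ACAUUCA. The 3 Mir9 genes encode the same pair of mature RNAs, so they differ in their surroundings and not in their product.

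The peak over Mir132 is shown because it held the hairpin and a CRE together. The sequence is chr11:75173551-75173850 (mm10, plus strand), the central 300 bases of the peak of library 1. Capitals mark, in order, the CRE, miR-132-5p and miR-132-3p.
Mir132 peak: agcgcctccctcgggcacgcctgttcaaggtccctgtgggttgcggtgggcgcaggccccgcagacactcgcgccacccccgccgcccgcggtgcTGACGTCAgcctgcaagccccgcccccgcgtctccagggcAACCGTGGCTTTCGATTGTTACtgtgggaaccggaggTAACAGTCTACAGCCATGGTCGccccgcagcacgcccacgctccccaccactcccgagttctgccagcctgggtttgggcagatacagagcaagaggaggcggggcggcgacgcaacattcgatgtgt
The next peaks are shown because they lay upstream of 2 of the genes for miR-9 and held the same word. The one beside Mir9-3 is chr7:79504781-79504980 (mm10, plus strand), with a SOX word, ACAATGG read on the minus strand, and the CRE in capitals.
Mir9-3 peak: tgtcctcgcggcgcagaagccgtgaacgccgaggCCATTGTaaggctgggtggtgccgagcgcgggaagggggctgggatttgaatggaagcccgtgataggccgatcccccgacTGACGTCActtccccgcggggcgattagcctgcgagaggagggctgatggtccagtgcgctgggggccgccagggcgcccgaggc
The one upstream of Mir3093 and Mir9-1 is the central part of its peak, chr3:88214241-88214540 (mm10, plus strand), with the NFI word TTGGCA and the CRE in capitals.
Mir3093 peak: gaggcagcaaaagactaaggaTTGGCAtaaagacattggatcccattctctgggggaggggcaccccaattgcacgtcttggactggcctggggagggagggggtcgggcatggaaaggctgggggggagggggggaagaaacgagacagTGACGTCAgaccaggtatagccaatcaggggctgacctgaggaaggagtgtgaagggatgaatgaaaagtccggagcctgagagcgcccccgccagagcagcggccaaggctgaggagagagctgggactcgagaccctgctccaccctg

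MicroRNAs enriched in neurons had a nearby peak more often than the other lists examined, and held several of the strongest signals. The list has 27 genes, of which 12 had a member peak in library 1 and 13 in library 2. In both libraries it was 11 of 27, or 40.7%, beside 236 of all 2202 miRNA genes, or 10.7%. The share was 18.0% of the 255 miRNA genes in noncoding genes or pseudogenes, where many of the listed genes lie. For the 1174 genes with a Mir symbol it was 13.4%. All lists were chosen with earlier results of these data known, so the order of the lists is a description only. The signal given below is the authors' value per peak, which has no stated normalization, and a gene without a peak stands at 0.

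The Mir132 and Mir212 hairpins lie next to each other in the noncoding gene 1700016P03Rik, and 1 peak over Mir132 (chr11:75173541-75173860 in both libraries) had a signal of 5.42 in library 1 and 5.44 in library 2. That peak averaged 5.43 ± 0.0195 (SD, n = 2) and overlapped 7 and 5 footprints, which are short stretches within open chromatin where cutting is reduced as under a bound protein. Upstream of Mir212, at chr11:75172361-75172540 in library 1, another peak stood at 1.87 and 2.51, and a further one at 1.20 and 1.22. Library 2 also listed a peak over the Mir212 hairpin itself with a signal of 2.76, at chr11:75173161-75173460, where library 1 listed none. It was the strongest member peak of library 2 with no overlapping peak in library 1.

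Mir124a-3, a gene for the most abundant neuronal microRNA, lay between a pair of strong peaks. The upstream one (chr2:180892961-180893180 in library 1) had signals of 5.05 and 4.79, and the downstream one (chr2:180894841-180895080) 4.77 and 4.87. Both lay 733 bases or more from the hairpin. The 2 weaker peaks between them, which flank or touch the hairpin, had signals of 0.994 and 1.23, and of 0.858 and 1.10, and held no footprint in either library, while the outer ones held 4 or 5 each. The other genes for miR-124 differed between the libraries: Mir124a-1 had 2 peaks in library 1, the stronger at 1.34, and none in library 2, and Mir124a-2 had none in library 1 and 2 in library 2, the stronger at 0.758.

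All 3 genes for miR-9, each in a noncoding host gene, had peaks in both libraries. Mir9-3 in Mir9-3hg had 1 peak, 283 bases upstream of the hairpin in library 1, with signals of 4.06 and 4.69 and 5 footprints in each library. Mir9-2 in C130071C03Rik had its strongest peak 875 bases downstream of the hairpin in library 1, with signals of 2.55 and 3.08. Mir9-1 in Gm3764 appears lower in library 1, at 0.919, than in library 2, at 2.47, and here the edge of the window decides the value. The upstream peak shown above was present in both libraries at 2.22 and 2.47, but in library 1 it ended 17 bases short of the window of Mir9-1, and in library 2 it reached 3 bases into it. That peak was matched as a pair through the neighbouring gene Mir3093, and with 7 and 9 footprints it was among the pairs that held most. A second matched peak stood at 0.919 in library 1, where it overlapped the Mir9-1 hairpin, and at 1.22 in library 2, where it ended just before it.

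The remaining neuronal loci with peaks in both libraries had signals of 2.60 or less. Mir129-2, a gene for miR-129, which is known to regulate neuronal excitability, had signals of 2.19 and 2.60 upstream of the hairpin, with 6 footprints each. Mir128-2 lies in an intron of the neuronal gene Arpp21 on its strand, and a peak over the hairpin had signals of 1.30 and 1.34. These 2 loci showed the same order in both libraries, with Mir129-2 above Mir128-2. Mir129-1 stood at 1.23 and 0.968. Mir7b, from a family bound by the circular RNA Cdr1as, stood at 0.871 and 1.04, and Mir137, a regulator of neuronal maturation, at 0.796 and 1.08. The last 3 overlap in range and have no clear order. Mir138-2, whose product limits dendritic spine size, had a member peak of 0.974 in library 2 alone, which overlaps a peak of library 1 that is no member, and 13 of the 27 genes had none in either.

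**Figure D1:**
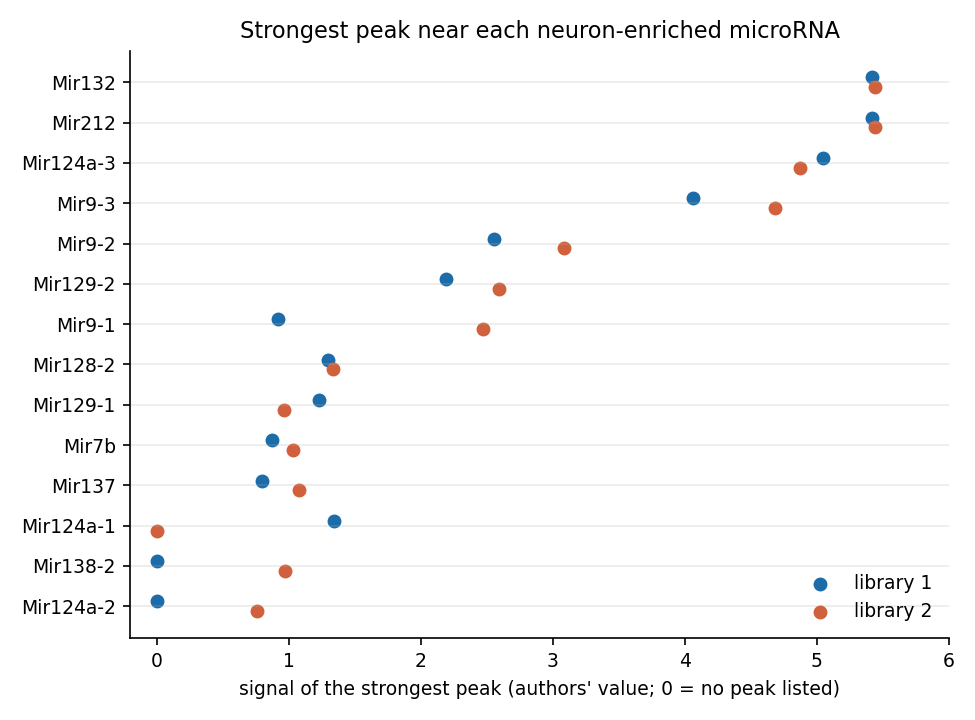
Signal of the strongest nearby peak (x axis, the authors' value, 0 where no peak is listed) for the 14 neuron-enriched microRNA genes with a peak in either library (y axis), 1 point for each of 2 libraries. Mir132 and Mir212 share the peak of 5.42 and 5.44, and Mir124a-1, Mir124a-2 and Mir138-2 have a peak in 1 library alone.

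Glial microRNAs had weaker peaks than the leading neuronal ones, and signals like those of the weaker neuronal ones. Of 17 genes in the list, 5 had a peak in each library and 4 in both, or 23.5%, beside the 10.7% of all miRNA genes. Mir29c, of a family that rises as the brain matures, had signals of 0.830 and 1.01 at a peak downstream of the hairpin. Mir181a-1 and Mir181b-1 share a noncoding host and a peak of 0.755 and 0.950 over the Mir181a-1 hairpin, and Mir219a-2, whose product drives oligodendrocyte maturation, had 0.585 and 0.623. All 4 lay below 1.1 in each library, under the 6 strongest neuronal loci, which were picked by their signal. The weaker neuronal loci Mir7b (0.871 and 1.04) and Mir137 (0.796 and 1.08) stood close to Mir29c. The lists thus overlapped in signal. Mir24-1 had a peak of 0.504 in library 1 alone and Mir17 one of 0.277 in library 2 alone.

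The family of let-7, miR-100 and miR-125, which controls developmental timing, had peaks in both libraries at 2 of 18 genes, or 11.1%, close to the 10.7% of all miRNA genes. Those 2 were strong. Mir125b-1 had 3 peaks in each library, the strongest at 2.45 and 2.26, which lay 905 bases upstream of the hairpin in library 1. Mirlet7i also had 3 in each, with 2 upstream peaks at 2.14 and 1.91 and at 1.64 and 2.03. The nearer of these overlapped 6 footprints in library 1 and 7 in library 2. The other genes with a peak, Mir125b-2, Mir99a and Mirlet7c-1, had one in a single library at 0.436 or less.

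Lists of other tissues fell on both sides of the 10.7% of all miRNA genes that had a peak in both libraries. Liver and gut microRNAs (25.0%), vascular ones (20.0%) and epithelial ones (18.2%) stood above it on 1 or 2 genes each, and the muscle, erythroid, myeloid, pluripotency and cell division lists were at 0. None of 7 myeloid and immune genes and none of 11 pluripotency genes had a member peak in either library. Among muscle microRNAs, Mir208b, which lies in the heart myosin gene Myh7, had 2 peaks of at most 0.395 in library 2 alone. The erythroid Mir486 in Ank1 had 1 of 0.604, also in library 2 alone. The 6 genes of the Mir17 cluster, known to promote cell division, shared 1 weak peak of 0.277 in library 2. Of liver and gut microRNAs, Mir192 and Mir194-2 shared a peak of 0.776 and 1.05, which makes 2 of 8. Of epithelial microRNAs, Mir34b and Mir34c, abundant in ciliated cells, shared a peak of 0.476 and 0.771, and Mir203 and Mir141 had one in library 2 alone. Mir145a, a microRNA of vascular smooth muscle, was the 1 of 5 vascular genes with peaks, at 2.52 and 2.44. No value here shows in which cells these peaks were open. In the imprinted Dlk1-Dio3 cluster, whose microRNAs neurons express from the maternal allele, 2 of 65 genes had a peak in both libraries, or 3.08%. These were Mir3072, in Mirg, at 1.18 and 1.28, and Mir329 at 0.667 and 0.561. A peak of 0.517 in library 1 alone accounts for the other 6 genes with one.

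**Figure D2:**
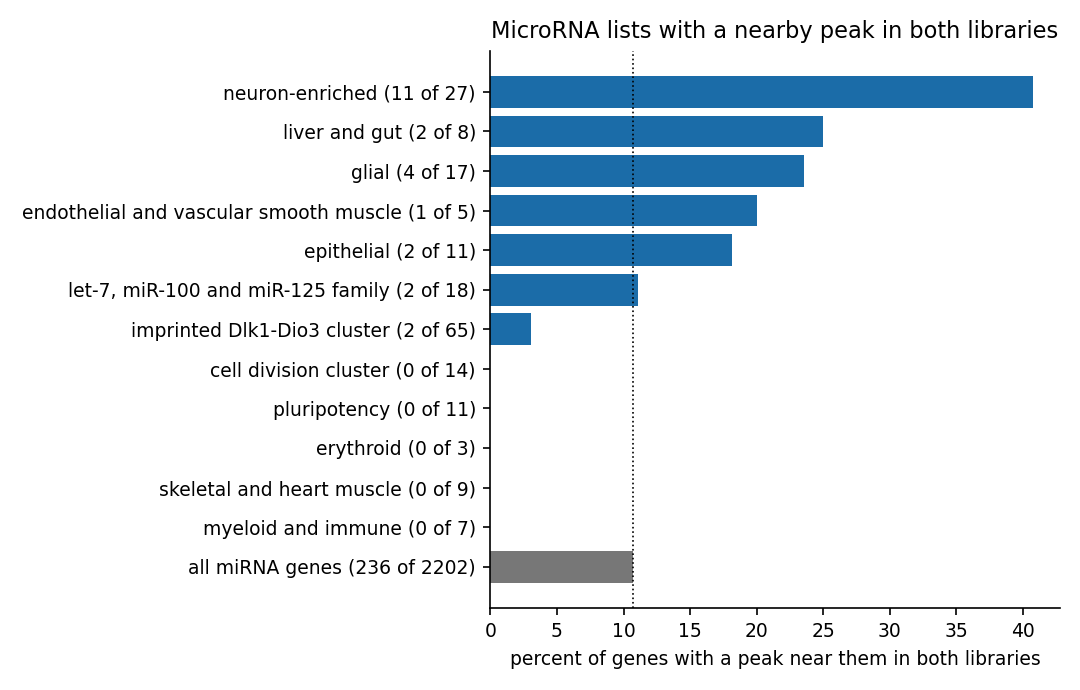
Percent of genes with a nearby peak in both libraries (x axis) for 12 microRNA lists and, at the bottom, all 2202 miRNA genes, with the counts beside each name. The neuron-enriched list reaches 40.7% and the dotted line marks the 10.7% of all miRNA genes.

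The strongest member peaks were partly at genes that carry the type miRNA but no microRNA name. Gm23935, inside Zc3h7a on the opposite strand, had the highest signal in both libraries, 13.1 and 16.8 (15.0 ± 2.63, n = 2), at chr16:11144171-11144320. Sequence of at least 90% identity to at least 50% of this peak stands in 9 other places of the assembly, and the sources used here do not say how reads from such copies were placed. Of the 20 strongest member peaks of each library, this was the 1 with such a copy. Copies of this kind were found for 24 of 368 peaks, or 6.52%, in library 1 and for 26 of 403, or 6.45%, in library 2, with median signals of 0.442 and 0.469 beside 0.721 and 0.758 for the peaks without a copy.

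Next came Gm47305, in the 7S RNA gene Rn7s2, with 7.28 and 7.86, and Mir8102, with 7.42 and 6.68, whose peak lay 516.5 bases from a protein-coding start in library 1 and so just past the limit of 500. Gm23634 in Stmn1 and Mir1893 in Epc1 were also within 1000 bases of such a start, at 661.5 and 785.5 bases in library 1, with signals of 4.93 and 5.47 and of 5.88 and 6.37. Mir1983, 48033.5 bases from any such start, had 4.99 and 4.76 over its own hairpin. The gene n-TStga1, which has the symbol of a serine transfer RNA, had 4 peaks in each library, and the one over the gene stood at 4.19 and 4.21. Gm24155, which lies beside Mir137, had 9 peaks over both libraries, the highest number, but the strongest of them with Gm24155 as nearest gene was 0.795. Mir124a-3, Mir129-2 and Mir129b, which overlaps Mir129-2, had 8 each, as had n-TStga1.

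Signals of peaks near microRNA genes were on the whole higher than those of other peaks away from promoters, and the distributions overlapped widely. The median was 0.708 in library 1 and 0.746 in library 2, against 0.585 and 0.580 over the other peaks more than 500 bases from protein-coding starts (107971 and 114462 peaks). The interquartile range of the member peaks was 0.476 to 1.32 in library 1 and 0.462 to 1.34 in library 2, against 0.388 to 0.960 and 0.382 to 0.980 for the others. A signal above 2 was reached by 49 and 60 member peaks, or 13.3% and 14.9%, against 5.71% and 6.93% of the others. Over all peaks, promoters included, the share was 11.9% and 13.2%.

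By distance from protein-coding starts, the medians of the member peaks were higher in each class. The rule left out 282 and 315 peaks, 500 bases or less from such a start. Their medians were 1.73 and 1.65, against 1.37 and 1.48 for other peaks at that distance. Members from over 500 to 1000 bases had medians of 0.691 and 0.755, against 0.647 and 0.678 for other peaks. From 1000 to 5000 bases they were 0.851 and 0.894, against 0.694 and 0.672 for other peaks. In the most distant class they were 0.687 and 0.666 (126 and 142 peaks), against 0.510 and 0.499. In the class before it, which starts at 5000 bases, they were closer to the others, at 0.728 and 0.678, against 0.681 and 0.666.
Member peaks were also richer in CpG, the dinucleotide that clusters in promoters. Of the 200 bases around the midpoint a median of 54.5% and 55.0% were G or C, against 49.5% and 50.5% in the others, and 97 and 113 peaks (26.4% and 28.0%) held 10 or more CpG, against 6.64% and 7.28%. Among peaks with 10 or more CpG, member medians were 1.03 and 1.22, against 0.864 and 0.925. With 0 to 2 CpG they were 0.578 and 0.499, against 0.510 and 0.499, so that in library 2 the medians were equal. Starts of other noncoding or pseudogene transcripts lay within 500 bases of 13.6% and 12.2% of member peaks, against 2.92% and 3.08% of the others. The part of CpG content and of these starts in the higher signal was not tested.

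**Figure D3:**
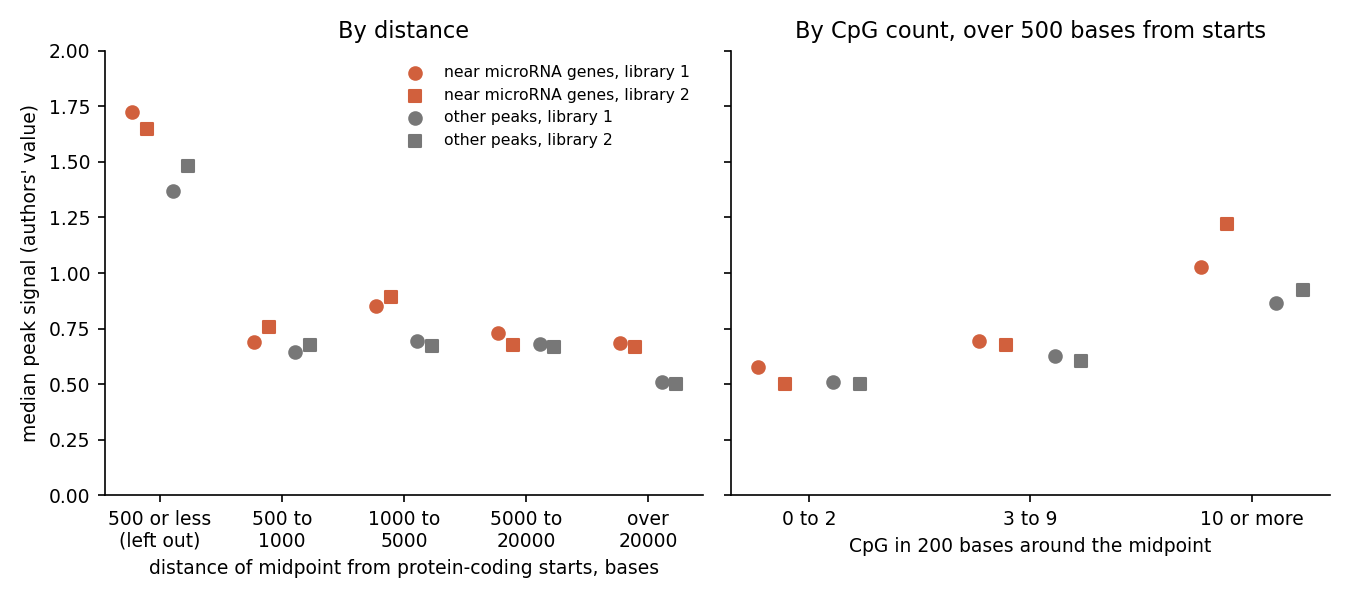
Median peak signal (y axis, the authors' value) of peaks near microRNA genes (orange, left in each class) and of other peaks (grey) in libraries 1 (circles) and 2 (squares), by distance from protein-coding starts in bases (left) and by CpG in 200 bases (right). In the most distant class the members stand at 0.687 and 0.666, against 0.510 and 0.499.

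Signal differed little across the edge of the window. In the last 200 bases inside it the median was 0.660 in both libraries (53 and 59 peaks), and in the first 200 bases outside it 0.633 and 0.647 (62 and 64 peaks). Within the window, 74 and 84 peaks overlapped a hairpin, with medians of 0.786 and 0.882, against 0.701 and 0.715 for those that did not. Peaks upstream of the hairpin numbered 141 and 162 and those downstream 153 and 157, so the order of the sides differed between libraries.

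Per gene, the share with a peak differed by where the microRNA lies. Of 255 miRNA genes in noncoding genes or pseudogenes 46 had a peak in both libraries, or 18.0%. The share was 13.0% (40 of 307) inside protein-coding genes on the opposite strand and 10.01% (98 of 979) on the same strand. Outside other genes it was 7.87% (52 of 661). In all, 303 genes had a peak in library 1 and 312 in library 2, with 67 in library 1 alone and 76 in library 2 alone. Counting promoter peaks as well, 361 genes had a peak in both, and the order of the classes changed. The opposite strand then came first, with 72 of 307, before noncoding genes or pseudogenes, with 55 of 255. The same strand had 173 of 979, and 61 of 661 lay outside other genes.

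The per-base tables, which list bases with a false discovery rate under 0.05, also had the highest share at hairpins in noncoding genes or pseudogenes. They were read around the 1778 hairpins whose window stays more than 500 bases from protein-coding starts. A listed base within the hairpin itself was found for 73 genes in library 1 and 83 in library 2, or 4.11% and 4.67%. Of 241 hairpins in noncoding genes or pseudogenes 28 and 29 had one, or 11.6% and 12.03%, against 2.78% and 3.23% of 899 in protein-coding genes and 3.13% and 3.92% of 638 outside genes. Those outside genes stood slightly above those in protein-coding genes here, the opposite of their order by peaks. The 2 orders are not of like sets. The shares by peaks cover all 2202 miRNA genes, with 424 whose window reaches within 500 bases of a protein-coding start. They also take peaks up to 1 kb from the gene and not the hairpin alone. The higher share of listed bases in noncoding genes or pseudogenes was not confined to the hairpin. In the bin centred 975 bases upstream it was 7.05% in library 1 and 7.88% in library 2. The shares there were 1.45% and 1.56% in protein-coding genes, and 1.88% and 2.66% outside genes.

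**Figure D4:**
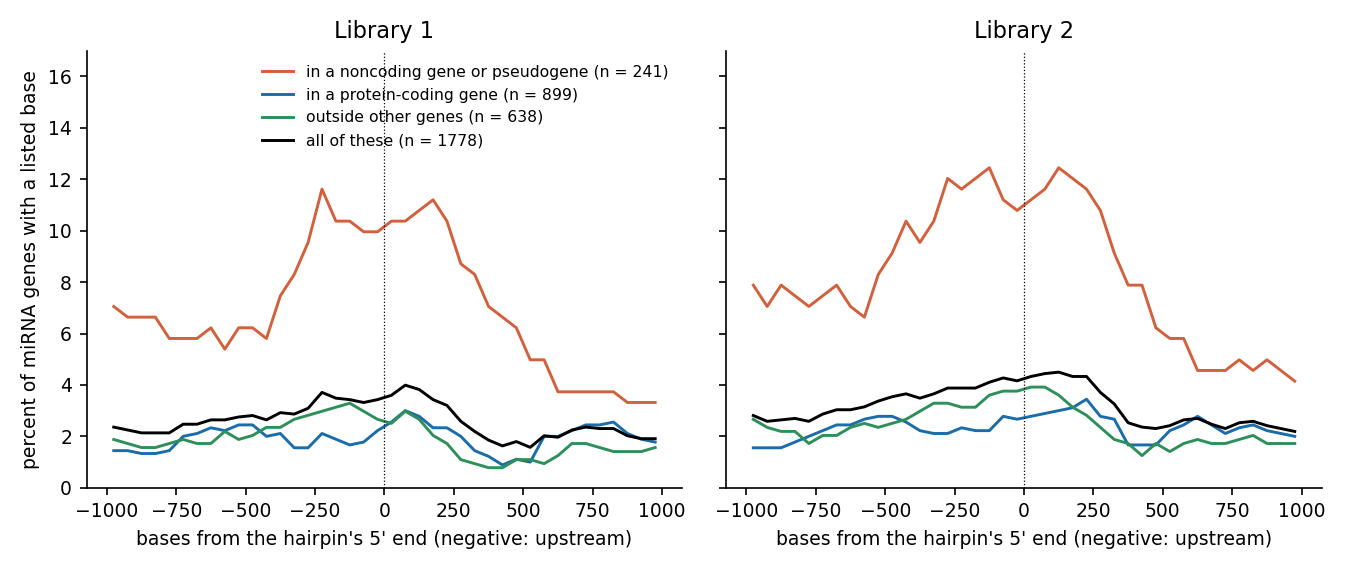
Percent of miRNA genes with a listed base (y axis) in bins of 50 bases by distance from the 5′ end of the hairpin (x axis, negative values upstream), for libraries 1 and 2, in genes away from protein-coding starts. Hairpins in noncoding genes or pseudogenes reach 11.6% in library 1 and 12.4% in library 2, and all 1778 together 3.99% and 4.50%.

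Member peaks were found again in the other library about as often as peaks in general when signal is not considered. In library 1, 290 of 368 (78.8%) overlapped a peak of library 2 by at least 1 base, against 75.3% of the other peaks away from starts and 77.8% of all peaks. In library 2, 288 of 403 (71.5%) did, against 70.9% and 73.2%. Between the lower quartile and the median of signal, members were found again less often than the others, 65.9% against 69.0% in library 1 and 51.2% against 62.1% in library 2. From the median to the upper quartile it was 81.4% against 89.5% and 76.4% against 84.5%. Below the lower quartile the order differed between libraries (44.0% against 42.6%, and 29.5% against 38.3%), and above the upper quartile the shares were 97.8% against 99.1% and 96.6% against 98.6%. The peaks not found again were weak, with medians of 0.442 and 0.425, against 0.909 and 0.974 for those found again. The strongest of library 1 without a counterpart was beside Mir5114 in Scd2, a lipid desaturase gene, at 1.76. Mir1249 and Gm47310 followed Mir124a-1 and Mir128-2 with peaks of 0.735 and 0.830. In library 2, those reported after Mir212 were beside Mir8120, at 1.36, and 2 peaks beside Gm23450 in Cacng8, a gene of an auxiliary subunit of glutamate receptors, at 1.21 and 1.11.

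Of the member peaks, 267 were matched as each other's strongest overlapping peak. On the log2 scale, library 2 over library 1, their median ratio was 0.13 (SD 0.37 over pairs), and the ratios ran between -0.93 and 1.03, and for all 99347 matched peaks the median was 0.09 (SD 0.40). More than a 2-fold difference was reached by 1 member pair toward library 2, beside 0.823% of all pairs, and by 0 toward library 1, beside 0.771%. That pair was Gm24368 in Kctd8, with 0.926 in library 1 and 1.89 in library 2. In the other direction Mir7240 in Mast3 was the lowest of the pairs above the median signal, at 1.67 and 0.993, a log2 ratio of -0.75. Gm22773 (0.572 and 1.03), Mir6391 in Abcc4 (1.44 and 2.57) and Mir7214 (0.578 and 0.962) were higher in library 2, by 0.73 to 0.85 on the log2 scale.

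**Figure D5:**
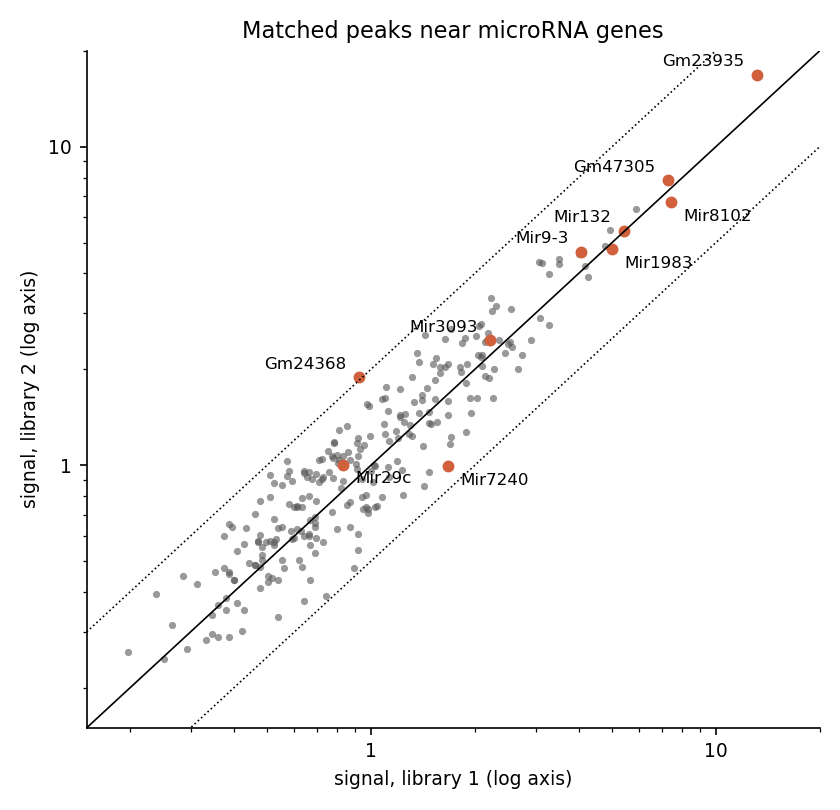
Signal in library 1 (x axis) and library 2 (y axis), both log axes of the authors' value, for the 267 matched peaks near microRNA genes. The solid line marks equal signal and the dotted lines a 2-fold difference, which Gm24368 (0.926 and 1.89) alone passes.

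Footprints were held by 270 of 368 member peaks (73.4%) in library 1 and by 315 of 403 (78.2%) in library 2. The share was 75.1% and 77.9% of the other peaks away from starts, and 76.1% and 78.9% of all peaks, so members stood close to the background. Member peaks averaged 1.95 and 2.15 footprints each, against 1.66 and 1.85 in the others, and were wider, with medians of 200 and 214 bases, against 189 and 188. By bases covered the shares were 11.3% in both libraries, against 10.3% and 11.1%. Within classes of like signal, set at the quartiles of the peaks away from starts, the difference varied. Between the lower quartile and the median a footprint was held by 57.3% of member peaks, against 72.8% of the others, in library 1 and by 66.7%, against 77.5%, in library 2. Between the median and the upper quartile it was 71.6%, against 89.6%, and 80.9%, against 89.5%. Below the lower quartile members stood slightly higher, at 42.0%, against 39.1%, and 49.2%, against 46.5%. Above the upper quartile they were close, at 96.3%, against 97.6%, and 94.6%, against 97.9%. The pairs with the most footprints were Gm22328 in Foxp1, a transcription factor gene of cortical neurons, with 8 and 11, and the peak upstream of Mir9-1. Mirlet7i, Mir6991 and Mir137 followed with 13 each over both libraries, and the peak over the Mir137 hairpin held 6 and 7.

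The CRE word, TGACGTCA, was found on 6 member peaks in each library, within 200 bases around the midpoint, which is 1.63% and 1.49%. Among the other peaks away from starts it was 460 of 107971 (0.426%) and 438 of 114462 (0.383%). The word is a palindrome, so both strands give 1 count. In 5 of the 6 it was at the same places in both libraries: beside Mir132, Mir124a-3, Mir9-3, Mir3093 with Mir9-1, and Gm47305. The first 4 of these are neuronal loci described above. The median signal of the 6 member peaks with the word in these 200 bases was 4.56 and 4.74, against 0.824 and 0.814 for the other peaks with it. The sixth in library 1 was a weak peak beside Gm26308, where the word did not lie wholly within the peak. In library 2 the sixth was the peak over Mir212, which holds the word 2 times.
Among peaks with 10 or more CpG the shares were 4.12% and 4.42%, against 1.07% and 1.03%, and among those with 3 to 9 CpG 0.549% and 0.521%, against 0.567% and 0.494%, which are alike. Counts of 6 are small. The words were chosen with earlier results of these data known, so the higher share is a description only. The part of nearby starts of noncoding transcripts, more frequent beside member peaks, was not tested. Of words that lay wholly within the peak, 3 of 5 in library 1 and 7 of 7 in library 2 touched a footprint, against 61.8% and 69.6% in the others. Beside Mir124a-3 and Gm47305 a footprint covered the whole word in both libraries. Beside Mir9-3 one covered it in library 2, while in library 1 a pair of footprints reached into its ends and left its middle uncovered. Beside Mir3093 one covered it in library 2 alone, and beside Mir132 one touched its first base in library 2 alone. A match describes letters and not binding.

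Other words were less frequent or alike in member peaks. The AP-1 word TGANTCA was held by 11.1% of them in library 1, against 15.2% of the others, and by 8.68% in library 2, against 13735 of 114462 others. For the NFI word TTGGCA it was 12.5% and 13.4%, against 18.1% and 17.4%. For the E-box CAGATGG of neuronal basic helix-loop-helix factors it was 10.6% and 9.93%, against 11.8% and 11.1%. MEF2, as CTATTTA, stood at 1.36% and 1.24%, against 2.39% and 1.92%. SOX, as ACAATGG, stood at 1.63% and 2.48%, against 2.28% and 2.21%, so that its direction differed between libraries. The NRF1 word GCGCATGC was held by 1 and 2 member peaks, against 0.687% and 0.716% of the others, and the longer CTCF consensus by 4.89% and 4.96%, against 6.41% and 6.24%. The REST consensus, searched as a strict word, was in 0 member peaks, against 26 and 37 of the others. Both strands were searched, and a letter N stands for any base. AP-1, NFI, E-box, MEF2, NRF1 and CTCF words were thus less frequent in member peaks in both libraries. MEF2 words were on 5 member peaks in each library and NRF1 words on 1 and 2, which are small counts. The E-box shares differed little. Most member peaks overlap a peak of the other library, so the libraries do not give separate evidence. Member peaks were also richer in G and C. The part of base composition was not tested.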

How the data were processed

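DNase-seq of 2 libraries was analysed. Per the deposited readme files, peaks, footprints and per-base tables were made from each library's own alignments on mm10, without pooling. The aligner, peak caller, thresholds and treatment of CAST alleles are not stated there. Peak signal is the authors' deposited value (column 7), without a stated normalization, and no counts were derived from it. The deposited footprint lists hold a q-value of 0.01 in every line, and the per-base tables q-values under 0.05. The longer of 2 deposited peak lists was used.

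Starts were those of all transcripts of GENCODE M21 protein-coding genes. Overlap needed 1 base, and matched pairs were each other's strongest overlapping peak. All rates were computed over whole lists, and no test was made. Words, GC and CpG were read from the mm10 genome in 200 bases around midpoints. Copies were searched with blastn 2.17.0 (90% identity over 50% of the peak). Of 1005 RefSeq hairpins, 1005 equalled the genome at their coordinates, and 968 of 2202 GENCODE miRNA genes had a RefSeq hairpin of the same symbol. Python 3.11.15, numpy 2.4.6, pandas 2.3.3, matplotlib 3.10.9 and bedtools 2.31.1 were used. Membership and matching were tested on simulated intervals.

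The member peaks, the 12 microRNA lists and the words were chosen with earlier results of these data known. Named genes are the 3 list members of highest mean signal (8 for the neuronal, glial and let-7 lists), the 10 matched peaks of highest mean rank, the 5 strongest unshared peaks of each library, the 5 genes with most peaks, the 5 pairs of largest log2 ratio above the median signal and the 5 pairs with most footprints. An item that this rule takes is not reported here. Mir129-1, Mir7b, Mir137, Mir138-2, Mir124a-1 and Mir124a-2 complete the neuronal genes with a peak, Mir141 was named to complete its list, and Gm26308 was added once its values were known. Alternative settings were the shorter list, windows of 0 and 5000 bases, no distance rule or 2000 bases, merged peaks, Mir symbols only, 50% overlap, footprints by midpoint or wholly inside, and each library alone.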

Additional observations from a re-analysis of the deposited data

How the results depend on the processing

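The rule for members sets their number, and the values below are means over both libraries. With the shorter peak list there were 234 peaks at 191 genes, with a median signal of 1.09 and a footprint in 83.1%, against 385.5 peaks, 307.5 genes, 0.727 and 75.8% as reported. With no extension of the genes there were 79 peaks at 80.5 genes, with a median of 0.834 and 81.2% shared, against 75.1% as reported. With 5000 bases there were 1396.5 peaks at 894 genes. Without the distance rule there were 684 peaks with a median of 0.957. Genes with a Mir symbol alone gave 203.5 genes and a median of 0.780. An overlap of at least 50% of both peaks left 61.2% shared. Searching whole peaks for the CRE word, a choice made after seeing the data, gave 1.42% in place of 1.56%. Each library alone gave 368 to 403 peaks, 303 to 312 genes, medians of 0.708 to 0.746, 71.5 to 78.8% shared, footprints in 73.4 to 78.2% and the CRE word in 1.49 to 1.63%. Of the neuron-enriched list, 9 of 27 genes had a peak in both libraries with the shorter list, 4 with no extension and 20 with 5000 bases. It was 11 as reported, and 11 under the other settings tried. The glial list gave 2, 1 and 9 of 17, against 4. Over all miRNA genes, the number with a peak per library moved as well, to the 191, 80.5 and 894 above, against 307.5. The share of all miRNA genes in both libraries was not set beside these counts, so they show no difference from it. In all, 3, 7 and 12 of 12 lists moved by over 1.5 times, or to or from 0, under those 3 settings. The log2 ratio needs both libraries and has no value with 1 left out. No paired analysis was possible because there is 1 group and no comparison between groups.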

Other observations

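Chromosomes differed in how many of their miRNA genes had a nearby peak in both libraries. On the X chromosome it was 2 of 142 genes, or 1.41%, with 2 member peaks in library 1 and 7 in library 2, against 10.7% of all miRNA genes. On chromosome 18 it was 11 of 57, or 19.30%, and on chromosome 11 it was 26 of 137, or 18.98%. On chromosome 12, which holds the imprinted Dlk1-Dio3 cluster, it was 7 of 146, or 4.79%. The number of all peaks on each chromosome was not set beside these shares.

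Genes with a Mir symbol and other genes of type miRNA also differed. Of 1174 with a Mir symbol 157 had a peak in both libraries, or 13.4%, against 79 of 1028 others, or 7.68%. The peaks near Mir symbols, 245 and 276 in number, had median signals of 0.776 and 0.783, against 0.640 and 0.654 near the others.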
